A study of Mus musculus with 48 samples.

Results

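Cortical layer marker genes are genes whose expression in the mouse neocortex is concentrated in particular layers of excitatory neurons. Here 9 such genes were followed out of the 19752 genes that could be named on the mRNA arrays. The 4 upper-layer genes were Cux1, Cux2, Rorb and Rasgrf2, the 4 deep-layer genes were Tbr1, Fezf2, Bcl11b and Foxp2, and Slc17a7 marks glutamatergic neurons of all layers. A probe was assigned to a gene by the RefSeq transcript it was designed on, and where a gene had several probes the one with the highest mean over the 24 mRNA arrays represented it. All 9 probes were well above background on 24 of 24 arrays, and none was saturated on any array.

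The series compared male Tg2576 mice, which carry the APPSWE transgene (strain label Tg(APPSWE)2576Kha), with male wild-type (WT) C57BL/6J mice obtained from another supplier. The transgene, human APP with the Swedish mutation, is driven by the promoter of the hamster prion protein gene, which is active in neurons across the brain and is not restricted to the cortex or to any layer. No treatment is named in the labels. RNA was taken from the cortex or from the whole brain at 10 or 17 months of age, which gave 8 groups of 3 samples on 1-colour mRNA arrays. According to the series design each group held 3 mice, but nothing in the labels says whether cortex and whole brain came from the same animals.

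The neocortex is built in layers whose excitatory neurons differ in their connections. Upper-layer neurons project mainly within the cortex and across the midline, while deep-layer neurons project to the thalamus, brainstem and spinal cord. The layer identities are set during development by transcription factors that remain expressed in the adult, and several of them are also used outside the neocortex: Bcl11b in medium spiny neurons of the striatum and in the hippocampus, Foxp2 in striatum, thalamus and Purkinje cells, and Tbr1 and the Cux genes in further forebrain neurons. In RNA of a whole tissue, fewer cells of a type and less RNA per cell cannot be told apart.

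All values below are log2 signals minus the 75th percentile of the same array, so that a value of 0 equals the 75th percentile and a difference of 1 is a doubling. Values of different genes come from different probes and are not compared with each other. Where groups are said not to overlap, this describes that gene alone, since the share of all probes without overlap was not counted. The 75th percentile lay between a signal of 507 and 823.6, 34158 to 41089 probes were well above background on an array, and Pearson's r between arrays over all probes ran from 0.9778 to 0.9931. The arrays lay on 3 slides. Slide 1 held the 10-month-old cortices and WT 17-month-old cortex replicates 1 and 2, slide 2 held the remaining 17-month-old cortices, WT 10-month-old whole brain and Tg2576 10-month-old whole brain replicate 1, and slide 3 held the other whole brains.

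The upstream sequences of 4 of the genes described below are shown first: Bcl11b, Cux2 and Slc17a7, which were higher at 17 months, and Rorb, which was lower. RefSeq promoters (build GRCm38.p6) were found for 8 of the 9 genes, and the 250 bases before the transcript start are printed on the strand of the gene. Capitals mark matches, on either strand, to the GC box GGGCGG, the proneural E-box CAGATG, the T-box site GGTGTG, the CUX site ATCGAT, the TATA box TATAAA or the CRE TGACGTCA.
Bcl11b, chr12:108003415-108003664, minus strand: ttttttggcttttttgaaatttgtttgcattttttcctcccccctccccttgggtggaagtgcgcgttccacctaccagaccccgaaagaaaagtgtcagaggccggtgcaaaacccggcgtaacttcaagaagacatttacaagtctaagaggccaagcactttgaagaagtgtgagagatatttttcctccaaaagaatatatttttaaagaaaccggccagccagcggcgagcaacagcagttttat
Cux2, chr5:122049852-122050101, minus strand: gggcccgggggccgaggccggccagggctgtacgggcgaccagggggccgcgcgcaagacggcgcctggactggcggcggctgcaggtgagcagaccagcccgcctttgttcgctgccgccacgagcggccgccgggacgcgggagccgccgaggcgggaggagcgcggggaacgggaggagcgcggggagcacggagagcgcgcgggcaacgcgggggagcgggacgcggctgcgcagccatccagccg
Cux2, other start, chr5:122047826-122048075, minus strand: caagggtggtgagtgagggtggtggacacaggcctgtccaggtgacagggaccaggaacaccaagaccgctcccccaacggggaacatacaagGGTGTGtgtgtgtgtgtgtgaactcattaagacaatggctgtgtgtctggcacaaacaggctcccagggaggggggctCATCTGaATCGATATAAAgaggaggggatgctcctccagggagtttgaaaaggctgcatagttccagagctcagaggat
Slc17a7, chr7:45163671-45163920, plus strand: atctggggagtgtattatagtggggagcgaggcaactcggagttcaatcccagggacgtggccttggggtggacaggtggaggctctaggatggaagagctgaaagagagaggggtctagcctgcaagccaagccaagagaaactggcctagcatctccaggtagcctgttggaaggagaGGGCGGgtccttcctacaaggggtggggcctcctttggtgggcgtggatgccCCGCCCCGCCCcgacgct
Rorb, chr19:19111197-19111446, minus strand: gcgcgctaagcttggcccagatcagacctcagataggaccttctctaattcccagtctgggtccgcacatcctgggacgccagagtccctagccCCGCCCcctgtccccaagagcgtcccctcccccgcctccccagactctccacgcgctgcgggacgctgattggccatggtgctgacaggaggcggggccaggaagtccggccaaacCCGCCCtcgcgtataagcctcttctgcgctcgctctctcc

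The Bcl11b window and the first Cux2 window held none of the 6 motifs, although they differed widely in base composition, with 44.8% and 80% G and C against a median of 52.4% over 32817 mouse promoter windows of this length. The other Cux2 window held a T-box site, an E-box, a CUX site and a TATA box, and the CUX site overlapped the TATA box. The Slc17a7 window held 3 GC boxes, some of them overlapping, and the printed Rorb window held 2. The window of the other Rorb start, which is not printed, had 39.2% G and C and held none of the 6 motifs. Over all windows the GC box was present in 32.7%, the E-box in 14.5%, the T-box site in 16.3%, the CUX site in 0.728%, the TATA box in 12.4% and the CRE in 1.55%. Of the 10 windows of these 8 genes, 4 held a GC box, 2 a T-box site, 1 an E-box, 1 a CUX site, 1 a TATA box and 0 a CRE. No motif was present in every printed window.

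**Figure D1:**
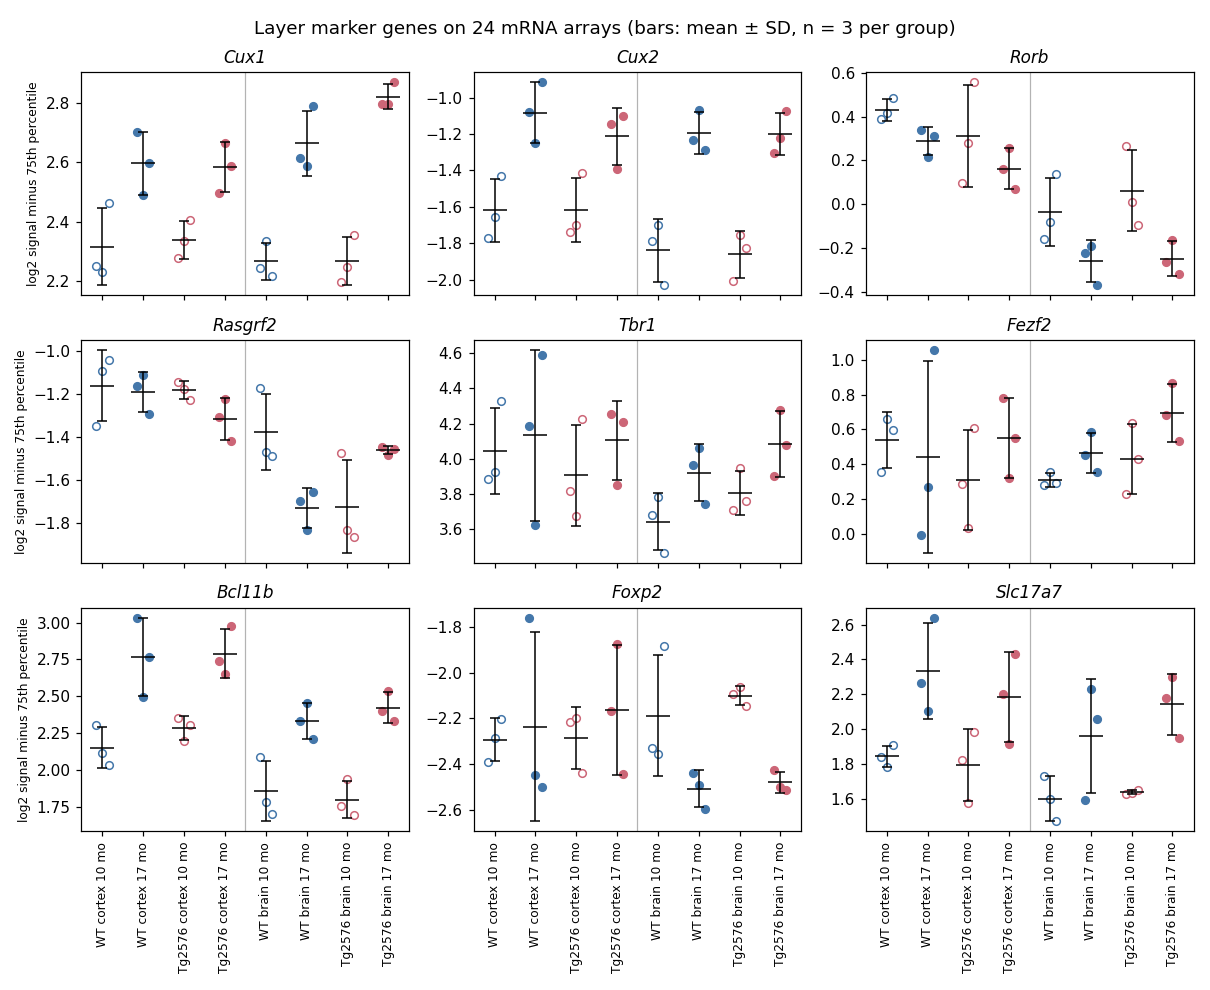
Log2 signal minus the array's 75th percentile for the 9 genes in the 8 groups, with 1 point per array and bars for mean ± SD (n = 3). Open points are 10 months and filled points 17 months, WT in blue and Tg2576 in red. Cux1 and Cux2 lay higher on all 12 arrays of 17 months than on any of the 12 arrays of 10 months, whereas Rorb and Rasgrf2 lay mostly higher in cortex than in whole brain.

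The first question was whether the genes were more abundant in cortex than in whole brain, which also checks the tissue labels. Rorb, Rasgrf2 and Bcl11b were higher in cortex and the other 6 genes did not pass the test. The folds were 1.34 for Rorb, 1.28 for Rasgrf2 and 1.32 for Bcl11b. With limma over the 24 arrays, 3 of 9 genes were called higher at an adjusted p of 0.05, against 19.9% of the 40484 probes tested, and 0 of 9 were called lower, against 17.6% of all probes. Of the probes called, 53% were higher in cortex, which became 40.3% when arrays were scaled to their median and 39.9% with another background correction (normexp). The median difference over the 9 genes was 0.18, with 0.25 for the upper-layer and 0.13 for the deep-layer genes, beside 0.01 over all probes tested.

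Rorb encodes a nuclear receptor of the thalamus-recipient layer. In WT cortex its values were 0.39, 0.42 and 0.49 at 10 months and 0.34, 0.22 and 0.31 at 17 months. In Tg2576 cortex they were 0.09, 0.28 and 0.56 and 0.16, 0.26 and 0.07. These 12 cortex values were all above 0, with 1 low array in the Tg2576 group at each age.
In WT whole brain Rorb was at -0.16, -0.08 and 0.14 at 10 months and -0.22, -0.19 and -0.37 at 17 months, and in Tg2576 whole brain at 0.27, 0.01 and -0.09 and -0.26, -0.16 and -0.32. The tissues overlapped only through the 10-month-old whole brains, of which the Tg2576 replicate 1 was the highest. The cortex mean exceeded the whole brain mean by 0.42 ± 0.05 (SE, limma, adjusted p = 2.231e-05).

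Rasgrf2, a Ras guanine nucleotide exchange factor of superficial neurons, was at -1.35, -1.09 and -1.04 in WT cortex of 10 months and -1.16, -1.11 and -1.29 at 17 months. In Tg2576 cortex it was at -1.14, -1.17 and -1.23 and at -1.30, -1.22 and -1.42. The cortex groups overlapped one another.
In WT whole brain the values were -1.17, -1.47 and -1.49 at 10 months and -1.70, -1.83 and -1.65 at 17 months, and in Tg2576 whole brain they were -1.47, -1.83 and -1.86 and -1.44, -1.48 and -1.46. WT replicate 1 of 10 months was the only whole brain sample within the range of the cortex samples. The difference between tissues was 0.36 ± 0.05 (SE, limma, adjusted p = 6.481e-05), and it ran from 0.15 in 17-month-old Tg2576 to 0.54 in 10-month-old Tg2576 mice. The second Rasgrf2 probe gave 0.27 (adjusted p = 0.0006863).

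Bcl11b (CTIP2), a zinc-finger factor of subcerebral projection neurons, was 0.40 ± 0.06 higher in cortex (SE, limma, adjusted p = 0.000157), and its second probe gave 0.21 (adjusted p = 0.03312). Tbr1, a T-box factor of corticothalamic neurons, ranged from 3.62 to 4.59 in cortex and from 3.47 to 4.28 in whole brain. Its difference of 0.18 ± 0.10 did not pass the test (adjusted p = 0.162).
The other Tbr1 probe, whose signal was lower, gave 0.60 ± 0.10 (adjusted p = 0.0001725), so the probes of this gene disagreed on the call. The 3 Cux1 probes disagreed as well, with differences of -0.05, -0.01 and 0.69, of which the last had an adjusted p of 3.177e-06 and belonged to the probe with the lowest signal. With the mean over all probes of a gene in place of a single probe, 5 of the 9 genes were called higher in cortex. The share over all genes in that setting is not given here.

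Slc17a7, the vesicular glutamate transporter of cortical excitatory neurons, was 0.20 ± 0.08 higher in cortex (SE, adjusted p = 0.05945) and Cux2, a homeodomain factor of upper-layer neurons, was 0.14 ± 0.06 higher (adjusted p = 0.07923). Fezf2, a zinc-finger factor of deep-layer projection neurons, differed by -0.02 ± 0.10, with a 95% interval from -0.23 to 0.20. Its cortex values ran from -0.0039 to 1.06, and both extremes were WT cortices of 17 months.

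**Figure D2:**
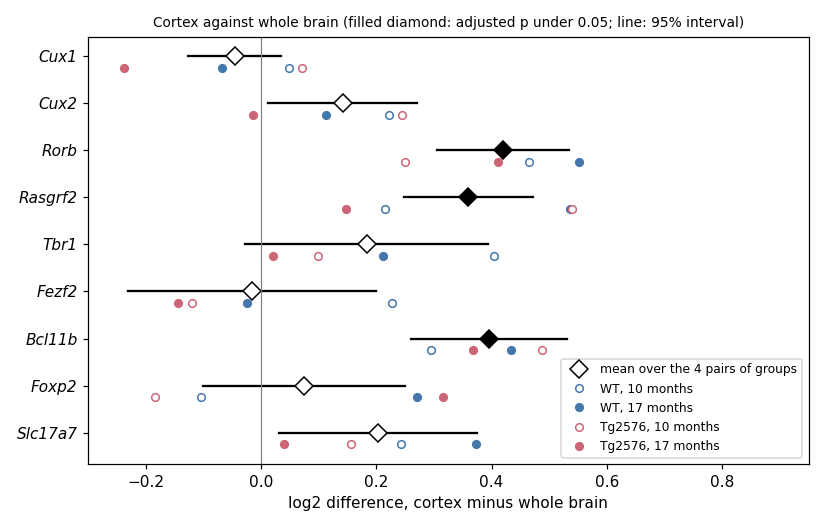
Log2 difference between cortex and whole brain for each gene. Diamonds with lines give the mean of the 4 pairs of groups and its 95% interval, filled where the adjusted p was under 0.05, and the smaller points below them give each genotype and age. Rorb, Rasgrf2 and Bcl11b lay above 0 in all 4 pairs, Fezf2 on both sides of 0.

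Rorb, Rasgrf2 and Bcl11b were higher in cortex in each of the 4 pairs of genotype and age, with ranges of 0.25 to 0.55, 0.15 to 0.54 and 0.30 to 0.49. With the slide as a block, limma called none of the 3, with differences of 0.24 for Rorb (adjusted p = 0.5463), 0.01 for Rasgrf2 (adjusted p = 0.9908) and 0.44 for Bcl11b (adjusted p = 0.3674). The share of all probes called in that fit is not given here. That fit links slides 1 and 2 only through WT 17-month-old cortex, by replicates 1 and 2 against replicate 3. Slides 2 and 3 are linked only through Tg2576 10-month-old whole brain, by replicate 1 against replicates 2 and 3. The slide terms therefore rest on these few arrays. On slide 2, the only slide with both tissues, every cortex was 17 months old and every whole brain 10 months old. Tissue and age cannot be told apart within slide 2 alone. Without WT 17-month-old cortex replicate 2, 6 genes were called higher, and without Tg2576 17-month-old cortex replicate 2, 5 were. Over the omission of each array in turn, 13587 to 15508 of all probes were called in either direction. Under the other alternatives, the slide block among them, 0 to 15891 were.

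Genes of other regions were read beside these differences. Of 10 further genes of cortical excitatory neurons, 3 were called higher in cortex (Slc30a3 by 0.45, Nptx1 by 0.34 and Camk2a by 0.20) and 0 lower, with a median of 0.19. Of 13 further upper-layer genes 3 were called higher (Mef2c by 0.36, Plxnd1 by 0.23 and Pou3f3 by 0.15) and 1 lower (Pou3f2, -0.25), and of 15 further deep-layer genes 4 were higher, among them Cplx3 by 0.42, Tle4 by 0.34 and Crym by 0.18, and 0 lower. Whole brain carried more signal of thalamus and cerebellum: 3 of 8 thalamic genes were lower in cortex, with Tcf7l2 at -1.82, and 5 of 9 cerebellar genes were lower, among them Pcp2, Gabra6 and En2.
The cortex samples in turn held more striatal signal, with 8 of 11 striatal genes higher (among them Drd2 by 0.76 and Gpr6 by 0.54) and 0 lower. The summed linear signal of the 11 striatal genes, in units of the 75th percentile, ran from 151.7 to 308.9 in cortex and from 129.8 to 186.2 in whole brain. For the 9 cerebellar genes the sum ran from 3.437 to 23.24 in cortex and from 6.888 to 51.12 in whole brain. The part of these regional differences in the layer genes was not tested. Of the remaining lists, 1 of 10 genes of GABAergic interneurons was higher in cortex and 2 were lower, 1 of 12 olfactory bulb genes was higher, 2 of 5 hippocampal and 2 of 6 astrocyte genes were lower, 1 of 9 oligodendrocyte genes was higher and 3 were lower, 1 of 5 endothelial genes was higher and 2 were lower, and 0 of 9 microglial and 0 of 6 choroid plexus genes were called.

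The second question was how the layer genes differed between 10 and 17 months of age. The homeodomain genes Cux1 and Cux2, together with Bcl11b and Slc17a7, were higher at 17 months, and Rorb was lower. Pooled over genotypes and tissues, Cux2 was 1.48-fold, Bcl11b 1.47-fold, Slc17a7 1.35-fold and Cux1 1.29-fold higher. This pooled comparison was added after the separate ones had been seen. It counts cortex and whole brain arrays as separate samples. If both tissues came from the same animals, its standard errors and p-values could be too small. Among the 9 genes, 4 were called higher, against 21.1% of the 40484 probes, and 1 was called lower, against 25.3% of the probes. Of the probes called, 45.5% were higher at 17 months, or 58.6% with scaling to the median. The median over the 9 genes was 0.21, with 0.15 for the upper-layer and 0.18 for the deep-layer genes, beside -0.03 over all probes tested.

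Cux2 did not overlap between the ages. At 10 months it was at -1.77, -1.66 and -1.43 in WT cortex and -1.74, -1.70 and -1.41 in Tg2576 cortex. At 17 months it was at -1.08, -1.25 and -0.92 in WT cortex and -1.14, -1.39 and -1.10 in Tg2576 cortex. Within each genotype all 17-month-old cortices were above all 10-month-old ones.
In whole brain of 10 months the values were -1.79, -1.70 and -2.03 in WT and -2.01, -1.76 and -1.82 in Tg2576 mice. At 17 months they were -1.23, -1.07 and -1.29 in WT and -1.30, -1.22 and -1.07 in Tg2576 mice. Over both tissues the lowest of the 12 arrays of 17 months (-1.39) lay above the highest of the 12 arrays of 10 months (-1.41). The difference was 0.56 ± 0.06 (SE, n = 12 and 12 arrays, limma, adjusted p = 8.145e-07).

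Cux1, the paralogue of Cux2, was at 2.25, 2.23 and 2.47 in WT cortex and 2.28, 2.34 and 2.40 in Tg2576 cortex at 10 months. At 17 months these cortices were at 2.70, 2.49 and 2.60 and 2.50, 2.67 and 2.59. The ages did not overlap in either genotype, although WT replicate 3 of 10 months (2.47) came close to the lowest 17-month value.
In whole brain it was at 2.25, 2.34 and 2.22 in WT and 2.20, 2.25 and 2.36 in Tg2576 mice at 10 months, and at 2.62, 2.59 and 2.79 and 2.80, 2.80 and 2.87 at 17 months. The pooled difference was 0.37 ± 0.04 (SE, limma, adjusted p = 4.933e-07). Of the other Cux1 probes, 1 gave 0.46 (adjusted p = 1.701e-05) and the other -0.11 (adjusted p = 0.2295), and the latter fell by 0.44 in Tg2576 cortex without passing the test (adjusted p = 0.06506).

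Bcl11b was at 2.31, 2.11 and 2.03 in WT cortex and 2.35, 2.19 and 2.31 in Tg2576 cortex at 10 months. At 17 months it was at 3.03, 2.50 and 2.77 and at 2.74, 2.65 and 2.97. All 6 older cortices exceeded all 6 younger ones.
In whole brain it was at 2.08, 1.78 and 1.70 in WT and 1.76, 1.94 and 1.70 in Tg2576 mice at 10 months, and at 2.33, 2.45 and 2.21 and 2.40, 2.53 and 2.33 at 17 months. Here too the ages did not overlap. The pooled difference was 0.55 ± 0.06 (SE, limma, adjusted p = 1.667e-06), and the second probe gave 0.40 (adjusted p = 0.0002658).

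Slc17a7 was at 1.84, 1.78 and 1.91 in WT cortex and 1.82, 1.57 and 1.98 in Tg2576 cortex at 10 months. At 17 months these groups were at 2.26, 2.10 and 2.64 and 2.20, 1.92 and 2.43. In WT cortex the ages were apart, while in Tg2576 cortex replicate 2 of 17 months fell below replicate 3 of 10 months.
In whole brain it was at 1.73, 1.60 and 1.47 in WT and 1.63, 1.64 and 1.65 in Tg2576 mice at 10 months, and at 1.60, 2.23 and 2.06 and 2.18, 2.30 and 1.95 at 17 months. The WT whole brain replicate 1 of 17 months remained at the level of the younger mice. The pooled difference was 0.44 ± 0.08 (SE, limma, adjusted p = 0.0002554).

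Rorb differed by -0.21 ± 0.05 between 17 and 10 months (SE, limma, adjusted p = 0.004577), in the direction opposite to the Cux genes. Tbr1 (0.21 ± 0.10, adjusted p = 0.09671), Fezf2 (0.14 ± 0.10, adjusted p = 0.2798), Foxp2 (-0.13 ± 0.08, adjusted p = 0.2212) and Rasgrf2 (-0.06 ± 0.05, adjusted p = 0.3551) did not pass the test. Within the upper-layer genes the calls ran in both directions.

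**Figure D3:**
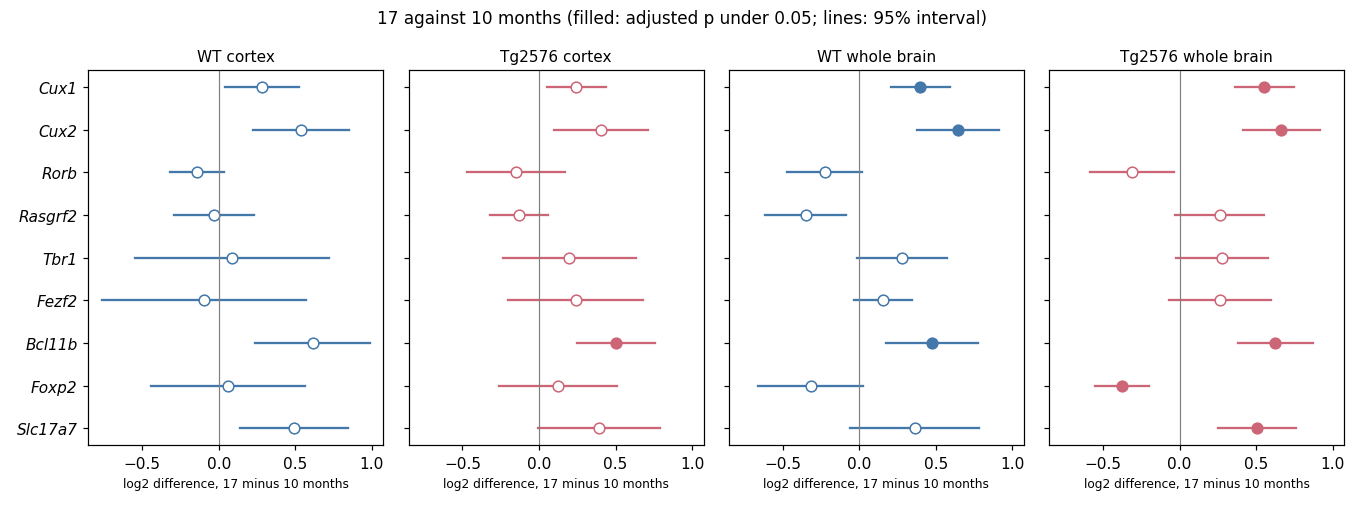
Log2 difference between 17 and 10 months for each gene in the 4 groups of genotype and tissue, as points with 95% intervals (3 against 3 arrays), filled where the adjusted p was under 0.05. Cux1, Cux2, Bcl11b and Slc17a7 lay above 0 in all 4 panels and Rorb below 0 in all 4, and more points were filled in whole brain than in cortex.

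The number of genes called differed from group to group. In WT cortex limma called 0 of 9 genes in either direction, against 2.94% of probes higher and 1.62% lower. At an unadjusted p under 0.05 there were 4 of 9, against 25.95% of probes, and the methods' t-test called 0. The nearest were Cux2 (0.54 ± 0.13, adjusted p = 0.06888) and Bcl11b (0.61 ± 0.15, adjusted p = 0.07457). In Tg2576 cortex Bcl11b alone was called, at 0.50 ± 0.11 (SE, adjusted p = 0.03837), so that 1 of 9 genes was higher against 5.6% of probes and 0 lower against 4.69%. Of the probes called there, 54.4% were higher, or 74% with scaling to the median. This call was lost when any 1 of the 6 arrays was left out, with adjusted p-values from 0.06294 to 0.09939.

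In WT whole brain 3 of 9 genes were called higher, against 12.7% of probes, and 0 lower, against 15.2%. Of the probes called, 45.6% were higher, or 67.1% with scaling to the median. The 3 genes were Cux2 (0.65 ± 0.11, adjusted p = 0.01128), Cux1 (0.40 ± 0.08, adjusted p = 0.017) and Bcl11b (0.48 ± 0.12, adjusted p = 0.03488). Cux1 and Cux2 passed whichever array was left out, whereas Bcl11b passed only with the set that lacked 10-month replicate 1 and missed the threshold in the other 5, at adjusted p-values of 0.05563 to 0.09453.
In Tg2576 whole brain 4 of 9 were called higher, against 6.57% of probes, and 1 of 9 lower, against 5.54%. Of the probes called, 54.3% were higher, or 67.9% with normexp. Cux2 (0.66 ± 0.10, adjusted p = 0.02016), Bcl11b (0.62 ± 0.10, adjusted p = 0.02103), Cux1 (0.55 ± 0.08, adjusted p = 0.0181) and Slc17a7 (0.50 ± 0.11, adjusted p = 0.03458) were the higher ones, and Foxp2 was lower.
The calls in Tg2576 whole brain rested on all 6 arrays: 0 of the 5 passed without 10-month replicate 2 or 3 or 17-month replicate 2, 1 passed without 17-month replicate 1, 3 passed without 10-month replicate 1 and 4 without 17-month replicate 3.
In the main test Rasgrf2 and Tbr1 passed in whole brain only with probes other than the one chosen for each gene. Among the alternatives Rasgrf2 was called in 3 of 15 in WT whole brain and Tbr1 in 1 of 16 in Tg2576 whole brain. Rasgrf2 differed by -0.35 ± 0.11 in WT whole brain (SE, limma, adjusted p = 0.05616) and its second probe by -0.35 (adjusted p = 0.03429), whereas in Tg2576 whole brain the differences were 0.26 ± 0.12 (adjusted p = 0.1935) and 0.10 (adjusted p = 0.5793). The other Tbr1 probe was 0.69 higher at 17 months in Tg2576 whole brain (adjusted p = 0.01778).

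Foxp2, a forkhead factor of corticothalamic neurons, was at -2.33, -2.35 and -1.88 in WT and -2.09, -2.07 and -2.15 in Tg2576 whole brain at 10 months. At 17 months it was at -2.44, -2.49 and -2.60 in WT and -2.43, -2.50 and -2.51 in Tg2576 mice. All whole brains of 17 months were below all those of 10 months, and the difference was -0.38 ± 0.07 in Tg2576 (SE, limma, adjusted p = 0.02959) and -0.32 ± 0.14 in WT mice (adjusted p = 0.1374).
The call in Tg2576 mice was lost whichever of the 6 arrays was left out, with adjusted p-values from 0.05501 to 0.09862, and with the slide as a block (adjusted p = 0.06357).
The second Foxp2 probe differed by -0.07 in Tg2576 (adjusted p = 0.7277) and by -0.51 in WT whole brain (adjusted p = 0.01931), so that the probes passed in different genotypes.
In cortex Foxp2 was at -2.39, -2.29 and -2.20 in WT and -2.22, -2.20 and -2.44 in Tg2576 mice at 10 months, and at -1.76, -2.45 and -2.50 and -2.17, -1.88 and -2.44 at 17 months. The older cortices spread widely and reached both above and below the younger ones. The array with the highest Foxp2, WT cortex replicate 1 of 17 months, was also the one with the highest striatal sum (308.9, against 172.3 and 184.3 in the other replicates). In Tg2576 cortex of 17 months the replicates with more Foxp2 had striatal sums of 212.1 and 213.5 and the one with less had 176.8. Other cortices did not follow this order. Tg2576 replicate 2 of 10 months had the lowest sum of all cortices (151.7) and the highest Foxp2 of its group (-2.20). WT replicate 3 of 17 months had a larger sum than replicate 2 (184.3 against 172.3) but less Foxp2 (-2.50 against -2.45). The part of striatal signal in the Foxp2 values was not tested.

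**Figure D4:**
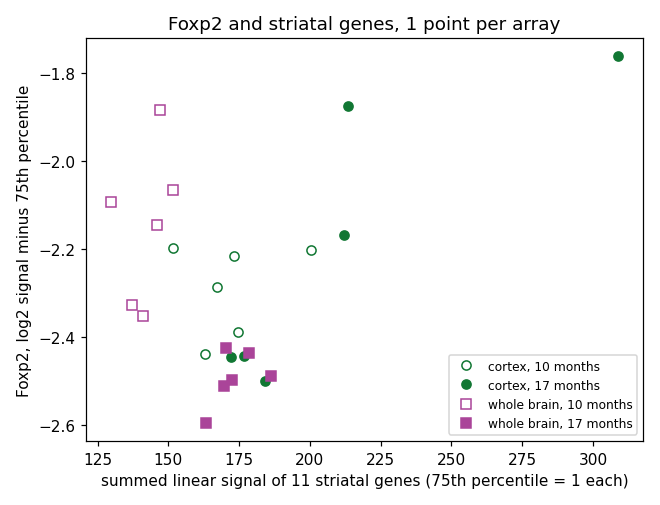
Foxp2 (log2 signal minus the 75th percentile) against the summed linear signal of 11 striatal genes, in units of the 75th percentile, with 1 point per array. Circles are cortex and squares whole brain, open at 10 and filled at 17 months. The cortex array with a sum of 308.9 had the highest Foxp2 value of all 24 arrays, and the whole brains of 17 months lay below those of 10 months at larger sums.

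Whether age differences differed between the tissues was tested as an interaction over 24 arrays, also added after the separate comparisons had been seen. With limma 0 of the 9 genes passed, while 0.272% of probes were called with a larger and 0.116% with a smaller difference in cortex. At an unadjusted p under 0.05 there were 2 of 9 genes, against 15.58% of probes. They were Foxp2 (0.44 ± 0.17, adjusted p = 0.2053) and Cux1 (-0.21 ± 0.08, adjusted p = 0.1825), and the methods' t-test called 0.

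Slide and age were partly confounded. In Tg2576 cortex and in WT whole brain each age lay on slides of its own, so that slide and age cannot be told apart there. Within slide 1, WT cortices of 17 months (replicates 1 and 2) exceeded the 3 of 10 months by 0.45 for Cux2, 0.61 for Bcl11b, 0.34 for Slc17a7 and 0.28 for Cux1, and Rorb differed by -0.15. Within slide 3, the 3 Tg2576 whole brains of 17 months differed from the 2 of 10 months by 0.59 for Cux2, 0.60 for Bcl11b, 0.52 for Cux1, 0.50 for Slc17a7 and -0.37 for Foxp2.
With the slide as a block in Tg2576 whole brain, 2 of the 5 genes passed, Cux1 (adjusted p = 0.04531) and Cux2 (adjusted p = 0.04725). In the pooled comparison with the slide as a block, Cux1 (0.33), Cux2 (0.41) and Bcl11b (0.53) passed, whereas Slc17a7 (0.28, adjusted p = 0.1455) and Rorb (-0.12, adjusted p = 0.3797) did not. Here too the slide terms rest on the few arrays that link the slides. The share of all probes called with the slide as a block is not given here.

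Further layer genes moved in both directions with age in the pooled comparison. Of 13 further upper-layer genes 7 were called higher, among them Scnn1a by 0.82, Pou3f2 by 0.43 and Plxnd1 by 0.43, and 3 lower, Calb1 (-0.24), Lamp5 (-0.24) and Inhba (-0.43), with a median of 0.17. Of 15 further deep-layer genes 4 were higher, among them Ntsr1 by 0.50, Parm1 by 0.44 and Nr4a2 by 0.40, and 1 lower, Cplx3 (-0.32), with a median of 0.03.
Of 10 genes of cortical excitatory neurons, 4 were higher, among them the neuronal transcription factor gene Neurod2 (0.63), Nrgn (0.43) and Itpka (0.23), and 2 lower, Neurod6 (-0.28) and Kcnv1 (-0.44). Beside them, 7 of 11 striatal genes were higher and 0 lower, 5 of 9 oligodendrocyte genes were higher and 0 lower, and 5 of 9 microglial genes were higher and 1 lower. The striatal sum ran from 129.8 to 151.5 in whole brain of 10 months and from 163.3 to 186.2 at 17 months, and in cortex from 151.7 to 200.5 and from 172.3 to 308.9. The oligodendrocyte sum ran from 252.9 to 294.1 and from 268.7 to 323 in whole brain of 10 and 17 months, and the microglial sum from 35.47 to 39.82 and from 38.62 to 51.83. In cortex the oligodendrocyte sum ran from 229.4 to 251.6 at 10 and from 223.9 to 310.1 at 17 months, and the microglial sum from 36.37 to 41.09 and from 41.47 to 46.15. Of the remaining lists, 3 of 5 hippocampal, 2 of 8 thalamic and 2 of 9 cerebellar genes were higher and 0 lower. Of 10 genes of GABAergic interneurons 1 was higher (Slc32a1, 0.63) and 2 were lower (Reln, -0.29, and Vip, -0.49), with a median of 0.0044. Their linear sum, in which genes of higher signal weigh more, did not overlap between the ages in either tissue. It ran from 165.1 to 179.2 and from 182.2 to 208.9 in cortex of 10 and 17 months, and from 172.7 to 205.2 and from 206.2 to 224.3 in whole brain. Of 5 endothelial genes 2 were higher and 2 lower, of 6 astrocyte genes 2 were higher and 1 lower, of 12 olfactory bulb genes 1 was higher and 2 were lower, and of 6 choroid plexus genes 0 were higher and 1 was lower. The part of these cell types and regions in the age differences of the layer genes was not tested.

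The third question, which the series was designed for, was whether the genes differed between Tg2576 and WT mice. None of the 9 passed in any of the 4 comparisons, and all differences lay between -0.35 and 0.27. For limma the count was 0 of 9 genes in cortex at 10 months (0% of 39629 probes called), 0 of 9 in cortex at 17 months (0% of 38889), 0 of 9 in whole brain at 10 months (0% of 38109) and 0 of 9 in whole brain at 17 months (0% of 36981). At an unadjusted p under 0.05 there were 0, 0, 0 and 1 genes, against 9.947%, 9.321%, 11.36% and 12.99% of probes. The methods' t-test called 0 in each.

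At 10 months in cortex, the differences ran from -0.23 for Fezf2 to 0.13 for Bcl11b, and the genotypes overlapped for every gene. The median was -0.01 for the upper-layer and -0.07 for the deep-layer genes. The 95% intervals of the 9 genes reached from -0.63 to 0.36. Beside them, all 12 olfactory bulb genes had an unadjusted p under 0.05 in this comparison, with a median of 1.58, although limma called 0 of the 12. Their summed signal was 61.14, 60.99 and 36.71 in the Tg2576 cortices and 28.99 to 31.78 in the WT cortices, and its part in the values of the layer genes was not tested. In 17-month-old cortex the differences ran from -0.15 for Slc17a7 to 0.11 for Fezf2, with intervals that reached from -0.64 to 0.79. Upper-layer genes had a median of -0.13 and deep-layer genes one of 0.05.
On slide 2 alone, where 1 WT cortex of 17 months stood against the 3 Tg2576 cortices, Fezf2 differed by -0.51, Tbr1 by -0.48, Slc17a7 by -0.46 and Foxp2 by 0.34. That WT array, replicate 3, had the highest Tbr1, Fezf2 and Slc17a7 values of all 12 cortices.

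In whole brain, Rasgrf2 had the largest differences. The Tg2576 mice were lower than WT mice at 10 months by 0.35 on the log2 scale (mean -1.72 against -1.38, adjusted p = 0.4402), with overlapping groups. At 17 months they were higher by 0.27 ± 0.07 (mean -1.46 against -1.73, adjusted p = 0.3417), and all 3 Tg2576 values lay above the WT values.
The genotype difference of Rasgrf2 at 17 months exceeded that at 10 months by 0.61 ± 0.17 (SE, limma interaction over 12 arrays, unadjusted p = 0.004048, adjusted p = 0.1905). Among 22 alternatives, in which it ran from 0.36 to 0.74 with adjusted p-values up to 0.5953, it passed in 1, that without Tg2576 10-month replicate 1 (0.74, adjusted p = 0.04108). On slide 2 alone, that replicate differed from the 3 WT whole brains by -0.10. In limma, 0 of 9 genes passed this interaction in whole brain (0% of 38480 probes) and 0 of 9 in cortex (0% of 40255). At an unadjusted p under 0.05 there were 1 and 0 genes, against 16.76% and 9.408% of probes, and the methods' t-test called 0. Cux1 was also without overlap between the genotypes at 17 months in whole brain, with 0.16 ± 0.08 more in Tg2576 mice. Its limma p was 0.09376 unadjusted and 0.4422 adjusted, in a comparison where 12.99% of all probes had an unadjusted p under 0.05.

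**Figure D5:**
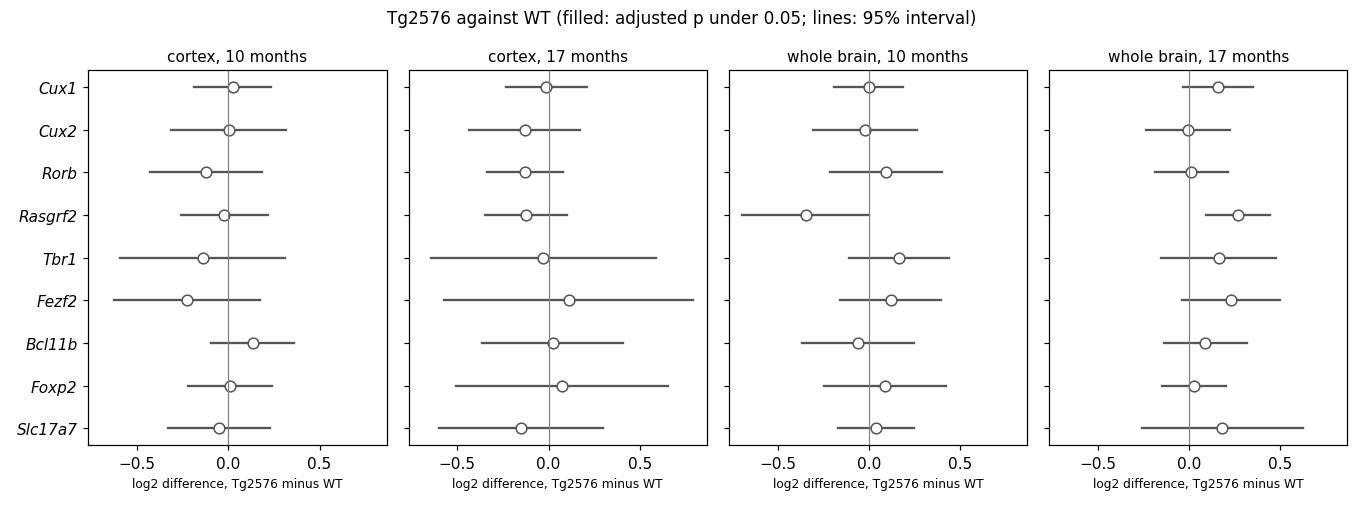
Log2 difference between Tg2576 and WT mice for each gene in the 4 comparisons, as points with 95% intervals (3 against 3 arrays), filled where the adjusted p was under 0.05. No point is filled, and Rasgrf2 in whole brain lay below 0 at 10 months and above 0 at 17 months.

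Over all 24 arrays, a comparison added after the separate ones, the genotype differences of the 9 genes ran from -0.06 for Rasgrf2 to 0.06 for Fezf2. None was called higher (0.104% of probes were) or lower (0.109%), and the methods' t-test called 0. An unadjusted p under 0.05 was found for 0 of 9, against 12.69% of probes. The 95% intervals of the 9 genes reached from -0.17 to 0.27, and the median was 0.04, beside 0.01 over all probes tested. Of the further lists, 0 of 13 upper-layer, 0 of 15 deep-layer and 0 of 10 excitatory neuron genes were called in either direction. Beside them, 2 of 9 microglial genes were higher in Tg2576 mice (Cst7 by 1.47 and Itgax by 0.72) and 1 of 6 astrocyte genes was higher (Gfap by 0.32). None of the genes of the other lists was called, although 9 of 12 olfactory bulb genes had an unadjusted p under 0.05, with a median of 0.54. The part of these cell types and regions in the values of the layer genes was not tested. The App probe was designed on the mouse transcript, and whether it also detects the human transgene was not tested. It differed by 0.04 ± 0.03 (adjusted p = 0.5756). In the separate comparisons it differed by 0.25 in whole brain at 10 months (limma, adjusted p = 0.4315) and by -0.02 in each of the others.

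The 8 groups were also ordered by their means. For Cux1, 2 of the 7 steps between neighbouring group means were larger than the larger SD of the pair: that between the 17-month and the 10-month groups, and that between Tg2576 and WT whole brain of 17 months. For Cux2, the 4 groups of 17 months likewise came first, and 2 of 7 steps exceeded the SD. They also came first for App, which is not a layer gene, and for Bcl11b and Slc17a7. For the latter 2 genes the step to the first 10-month group (0.05 and 0.12) was within the SD. For Rorb and Rasgrf2 the 4 cortex groups came first, but the step from the last of them to the first whole brain group (0.10 and 0.06) was within the SD. Bcl11b, Rorb and Rasgrf2 also had 2 of 7 such steps, Tbr1 and Foxp2 had 1, and Fezf2 and Slc17a7 had 0.

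The genes most like each layer gene over the 12 cortex arrays were sought among 14971 genes, as a description without a test, since these arrays share slides, ages and genotypes. Cux2 was followed most closely by Tmem132a (r = 0.983), Pcnx2 (0.975) and Acta1 (0.975), with r of 0.895, 0.916 and 0.85 over the 12 whole brain arrays. For Bcl11b the closest were St3gal1 (0.956), Smarcd1 (0.953) and Rasl10b (0.951), with 0.919, 0.92 and 0.828 in whole brain. For Cux1 they were 4931428F04Rik (0.939), Wiz (0.937) and Rps6kb2 (0.933), of which the last was at -0.293 in whole brain.
For Slc17a7 the closest were E130309D02Rik (0.967), Ctxn1 (0.965) and Mef2d (0.963), for Tbr1 Tlk1 (0.96), Prkcz (0.94) and Ier5 (0.934), and for Fezf2 Satb1 (0.951), Tmem178 (0.94) and Npnt (0.928). Those of Slc17a7 were at 0.767 to 0.868 in whole brain, and those of Tbr1 and Fezf2 at 0.427 to 0.773. Rorb (Il18, 0.906; Tmem50b, 0.892; 9330159F19Rik, 0.886) and Rasgrf2 (Tulp2, 0.878; H1f6, 0.867; H4c4, 0.866) had looser companions, with 0.06 to 0.692 in whole brain.
Foxp2 was closest to Pcp4 (0.866), Fbxo36 (0.841) and the striatal gene Rgs9 (0.826). In whole brain the same genes were at 0.011, -0.417 and -0.655.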

How the data were processed

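The mRNA of 24 samples (8 groups of 3) was hybridised to 1-colour Agilent mouse arrays, and groups were taken from the sample labels. Per the file headers, the deposited intensity values were read by Agilent Feature Extraction (version 10.7.3.1 in the submitters' processing notes), which subtracts the background. The authors also deposited log2 values, for which the methods name GeneSpring. On every array at least 99.8% of them lay within 0.01 of log2 intensity minus a constant at the 75th percentile. The miRNA arrays were not used here.

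Outlier spots among the 59305 non-control spots were left out, spots of a probe averaged, and log2 intensity minus the array's 75th percentile computed for 55681 probes, of which 26056 had a symbol. A probe entered the test where at least 2 arrays of a compared group gave a signal well above background. Tests used limma 3.58.1 in R 4.3.3 with Benjamini-Hochberg adjustment over all probes tested and a threshold of 0.05, and 95% intervals came from the moderated test. The test was checked on simulated data with independent noise for each probe. The simulation held no slide or tissue differences, so it does not bear on those limits. The number of arrays limits the precision. Each group was described as 3 mice, without an animal named for each sample, and p-values measure the spread between these samples.

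The rule for named genes took the 9 genes in every comparison, up to 3 called genes in each direction of a further marker list and the 3 genes most correlated with each member over the 12 cortex arrays. Genes of the lists are named in the comparisons over all 24 arrays, and some lists are given by their counts. The value of 1 gene that this rule names is not reported here. The members and lists were chosen with earlier results of these data known, and the 3 comparisons over all 24 arrays were added after seeing the data. Alternatives were quantile and median scaling, the authors' log2 values, normexp background correction (offset 50), no filter, the mean over probes, a fit of all arrays, slide and replicate blocks, omission of each array in turn, and an equal-variance t-test. The p-values of this t-test were adjusted, although the methods name no adjustment. A gene could therefore pass the methods' own threshold without being called here. Upstream sequences came from RefSeq.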

Additional observations from a re-analysis of the deposited data

How the results depend on the processing

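No value of a layer gene that passed the test changed its sign under any alternative run, and the genotype comparisons gave 0 of 9 genes in every one. The age comparison in WT cortex, with 0 genes called, gave 2 with normexp and 4 when all 24 arrays were fitted together. Over all probes the calls there went from 1802 to 2140 with normexp. The ranges of probes called over the other alternatives are given at the end of this section. They are not split by setting, so these gene counts cannot be set against all probes of the same setting. In Tg2576 cortex, where 1 gene was called, 0 were called with quantile normalization, 0 with no filter, 0 with the mean over probes and 0 with the adjusted t-test, and 3 with all 24 arrays in 1 fit. In WT whole brain the 3 genes became 5 with normexp, 1 with no filter and 5 with the mean over probes. With normexp the probes called there went from 10479 to 11271. The 5 genes in Tg2576 whole brain became 2 with the slide as a block, and the 5 of the pooled age comparison became 3. The 3 genes higher in cortex became 5 with the mean over probes, 0 with the slide as a block, and 0, 0 and 0 when the 6 arrays of WT at 10 months, Tg2576 at 10 months and Tg2576 at 17 months were fitted alone, which have fewer samples. Apart from these smaller fits, the cause was not tested.

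Samples were not treated as paired by replicate number. In no comparison was every correlation of same-numbered samples over 0.1 (from -0.165 to 0.186). Between cortex and whole brain, which could share animals, these correlations ran from -0.066 to 0.122. So few samples per group cannot exclude pairing. With the replicate block, the age comparison called 0 genes in Tg2576 cortex, 1 in WT whole brain and 0 in Tg2576 whole brain, and no other count of genes changed by more than 1.5 times. The share of all probes called with the replicate block is not given here.

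With each array left out in turn, the count ran from 0 to 0 in Tg2576 cortex by age, from 2 to 3 in WT whole brain and from 0 to 4 in Tg2576 whole brain by age, from 3 to 6 for cortex against whole brain, from 0 to 1 for genotype by age in whole brain and from 5 to 6 for pooled age. Of the probes called by age, 1802 in WT cortex became 0 to 30 with an array left out and 0 to 6052 under the other alternatives, 4025 in Tg2576 cortex became 23 to 1360 and 15 to 7456, 10479 in WT whole brain became 5918 to 7865 and 4760 to 11763, and 4591 in Tg2576 whole brain became 42 to 2679 and 13 to 10146. The 15198 probes that differed between tissues became 13587 to 15508 and 0 to 15891, the 18794 of pooled age 17843 to 18912 and 10331 to 18941, the 157 of age by tissue 10 to 324 and 0 to 340, and the 86 of pooled genotype 35 to 177 and 37 to 88. Genotype by age, with 0 probes, gave up to 291 in cortex and 718 in whole brain with an array left out.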
